A study of Mus musculus with 6 samples.

Results

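Rgl1 is one of 6 genes of the Ral GTPase pathway described here, with its relatives Rgl2, Rgl3 and Ralgds and the GTPases Rala and Ralb. The 6 were taken by gene symbol out of 19937 genes that the arrays measured, and each of them had a single probe set, so no gene had a second one for comparison. Rgl1 was chosen because its probe set was lower after tamoxifen, and the others were chosen by name as its relatives. The intensities compared between the groups therefore chose Rgl1, and its difference is given below as a description, with no test.

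Total RNA was measured on microarrays in mouse pro-B cells transformed with v-Abl, a viral tyrosine kinase that keeps early B lineage cells growing in culture. All 6 samples carried the genotype Foxo1f/f with ERCre on the C57/BL6 strain, that is, Foxo1 alleles flanked by loxP sites and a Cre recombinase that tamoxifen switches on. The 3 untreated samples still had the floxed alleles in place and are described in the labels as WT, and the 3 samples given 1 µM tamoxifen for 2 days are described as a Foxo1 knockout. The labels do not say which promoter drives the Cre, how many lines or clones were used, or whether the samples within a group were cultured apart. The p-values below therefore cover only the spread among these samples, which may be technical. Because no tamoxifen-treated cells without the floxed alleles were analysed here, the effect of the drug or of Cre and the effect of losing Foxo1 cannot be told apart.

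Ral proteins are small GTPases of the Ras superfamily that are active when they hold GTP and inactive when they hold GDP. RalGDS and its relatives of the Rgl family are exchange factors that load Ral with GTP, and they bind active Ras through a Ras-association domain, so they form a branch of Ras signalling beside the Raf kinases and phosphoinositide 3-kinase. A complex of RalGAP proteins turns Ral off. Active Ral binds the exocyst, which tethers secretory vesicles at the plasma membrane, and in lymphocytes Ral has been tied to cell migration and to signals from antigen and chemokine receptors.

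Array medians ranged from 100.9 to 109.1, and with 3 arrays per group the precision is limited by their number. Foxo1, the targeted gene, averaged 647 ± 149 in untreated and 134 ± 17.8 in tamoxifen samples (SD, n = 3), and each tamoxifen value was below each untreated one. The sources used here do not say whether that probe set falls in the floxed region. As to the labelled cell type, 9 of 11 measured B lineage markers had a mean intensity at or above 106, the median over probe sets, and the exceptions were the recombinase genes Rag1 and Rag2. The summed intensity of the B lineage markers ran from 15148 to 18944 in untreated and from 17681 to 19352 in tamoxifen samples. With limma 0 of these 11 reached an adjusted p under 0.05. Before adjustment 6 (5 positive, 1 negative) had a limma p under 0.05, which 5.15% of all genes had. Groups did not overlap for 5 of the 11, against 9.29% of all genes. The log2 fold changes of the 11 ran from -0.51 for Ebf1 to 0.52 for Cd79b, which passes on the signal of the B cell receptor. The part of these markers in the results below was not tested. Also measured were 7 T cell, 9 myeloid, 5 erythroid and megakaryocyte and 8 NK, plasma and stromal markers. Of these, in that order, 1, 0, 2 and 3 had a mean intensity at or above the median of 106. The summed intensity of the myeloid markers ran from 536 to 606 in untreated and from 555 to 580 in tamoxifen samples, and that of the T cell markers from 412 to 525 and from 417 to 505. For the erythroid and megakaryocyte markers the sums ran from 427 to 468 and from 410 to 448, and for the NK, plasma and stromal markers from 1112 to 1177 and from 1106 to 1254, so the ranges of the groups overlapped in each of the 5 lists. No marker was listed at 0.

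All 3 tamoxifen samples had less Rgl1 signal than all 3 untreated ones. Untreated samples 1, 2 and 3 gave intensities of 2253, 2053 and 1855, and tamoxifen samples 1, 2 and 3 gave 1292, 1070 and 1088. The groups did not overlap, and the lowest untreated sample lay well above the highest tamoxifen sample. The means were 2054 ± 199 and 1150 ± 124 (SD, n = 3), so the tamoxifen samples kept 56.0% of the untreated intensity. On the log2(value + 16) scale after quantile normalization the fold change was -0.83 ± 0.07 (SE), and a fold change on this scale understates the change of dim genes. The tamoxifen samples 1, 2 and 3 differed from the untreated mean by -0.75, -0.88 and -0.85 on that scale, values that belong to the contrast by which Rgl1 was chosen. By comparison Foxo1 kept 20.7% of its untreated intensity.

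RefSeq lists 2 start sites for Rgl1 on the minus strand of chromosome 1, and the 250 bases before each (build GRCm38.p6) are shown because the gene targeted in these cells, Foxo1, encodes a forkhead factor. The letters AAACA, the core shared by forkhead binding motifs, were searched on both strands (TGTTT on the other) and are in capitals. The longer forkhead motif GTAAACA, which contains that core, and its complement TGTTTAC were searched too. The upstream start has the window chr1:152766306-152766555, and the start inside the gene has chr1:152625218-152625467.
Rgl1 upstream start: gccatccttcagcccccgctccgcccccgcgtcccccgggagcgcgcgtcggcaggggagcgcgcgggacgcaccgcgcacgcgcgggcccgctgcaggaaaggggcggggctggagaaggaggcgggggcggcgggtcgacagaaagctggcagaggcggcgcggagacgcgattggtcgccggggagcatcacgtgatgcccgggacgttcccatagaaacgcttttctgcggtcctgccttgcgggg
Rgl1 downstream start: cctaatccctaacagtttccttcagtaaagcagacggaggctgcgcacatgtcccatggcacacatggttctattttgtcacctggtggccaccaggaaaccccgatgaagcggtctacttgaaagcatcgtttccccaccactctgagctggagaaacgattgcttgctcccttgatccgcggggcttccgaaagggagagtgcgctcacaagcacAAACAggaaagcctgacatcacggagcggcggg
The upstream window held 74.4% G and C and no AAACA, and the downstream window held 55.2% G and C and 1 AAACA, whose first base lay 33 bases before the start. Neither held GTAAACA. Over 32851 RefSeq promoter windows of the same length, 46.4% held AAACA and 3.17% held GTAAACA. Of the other members, Rgl2, Rala and Ralb and the downstream start of Ralgds had 1 AAACA each, Rgl3 and the upstream start of Ralgds had 0, and none of them had GTAAACA in these windows. The presence or absence of these letters does not show whether a factor binds, and the sources used here do not say which Rgl1 start the probe set reads.

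None of the other 3 exchange factors passed the test in either direction. Rgl2, which like Rgl1 couples active Ras to Ral, measured 214, 186 and 219 in the untreated samples (1, 2 and 3) and 199, 247 and 217 in the tamoxifen samples in the same order of numbers. Its groups overlapped, with tamoxifen 2 the highest and untreated 2 the lowest. Its log2 fold change was 0.08 ± 0.11 (SE), with a 95% interval of -0.19 to 0.34 and a limma adjusted p = 1.00. Rgl3, another Ras-binding exchange factor of the family, measured 157, 151 and 174 in untreated and 153, 143 and 178 in tamoxifen samples. Its highest and its lowest value both came from tamoxifen samples, and the log2 fold change was -0.03 ± 0.10 (SE), with a 95% interval of -0.26 to 0.20 and a limma adjusted p = 1.00.

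Ralgds, the founding exchange factor of the group, measured 145, 134 and 142 in untreated and 152, 152 and 158 in tamoxifen samples. Its groups did not overlap, each tamoxifen value being above each untreated one, although the gap was small beside the levels. Over all genes 9.29% had groups without overlap (4.53% raised and 4.77% lowered). The means of Ralgds were 140.3 ± 5.997 and 154.1 ± 3.338 (SD, n = 3). The log2 fold change of Ralgds was 0.12 ± 0.06 (SE), its 95% interval ran from -0.02 to 0.27, and it did not pass the test (limma adjusted p = 1.00). Among all genes 19.2% had a log2 fold change at least as large in either direction.

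**Figure D1:**
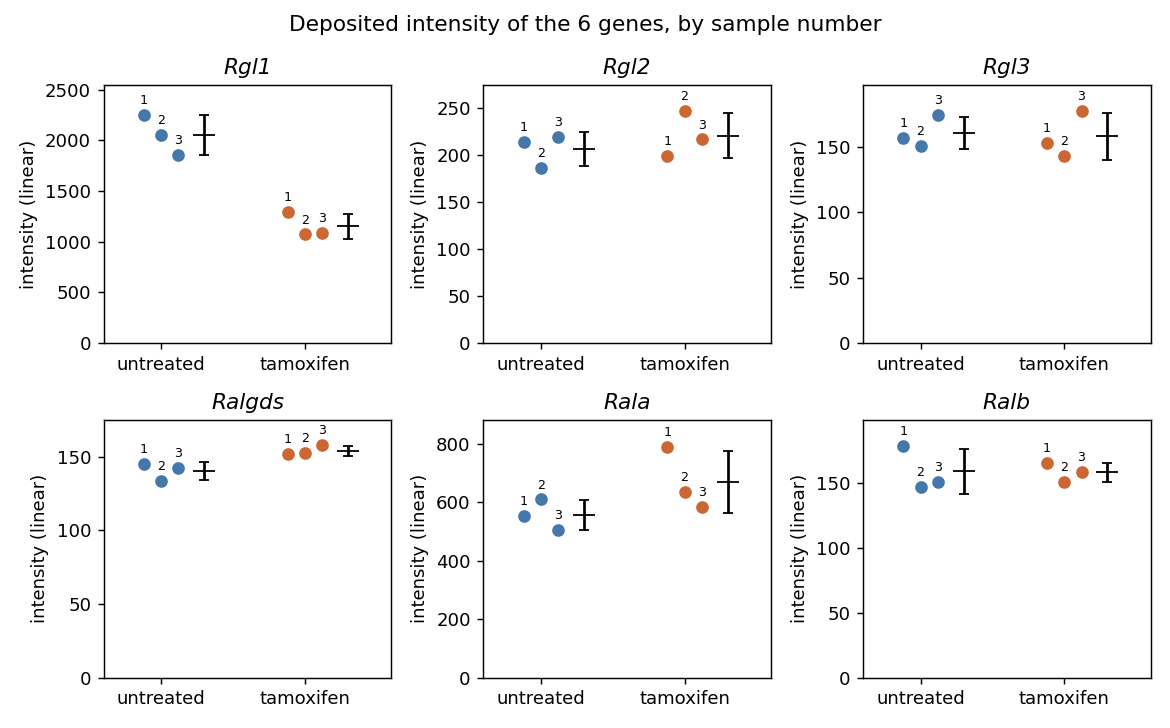
Deposited linear intensity of each of the 6 genes on its own axis, which starts at 0, in 3 untreated (blue) and 3 tamoxifen (orange) samples marked by their number, with the mean and SD in black. Rgl1 is lower in all 3 tamoxifen samples, Ralgds is slightly higher in all 3, and the groups of the other 4 genes overlap.

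Neither of the 2 Ral GTPases passed the test, Rala with a positive value and Ralb with a value near 0. Rala, which acts in exocyst assembly and vesicle delivery, measured 552, 609 and 505 in the untreated samples and 787, 634 and 582 in the tamoxifen samples, each in the order 1, 2 and 3. Tamoxifen 1 was the highest, while tamoxifen 3 lay below untreated 2, so the groups overlapped. The means were 555 ± 52.1 and 668 ± 106 (SD, n = 3). The log2 fold change was 0.24 ± 0.09 (SE), with a 95% interval of 0.02 to 0.46 before any adjustment, and Rala did not pass the test over all probe sets (limma adjusted p = 0.927, unadjusted p = 0.0376). It was 0.16 without tamoxifen sample 1, against 0.22 to 0.31 with any other array left out. At least as large a difference was seen in 4.39% of all genes.

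Ralb, a close relative of Rala that shares most of its effectors, measured 179, 147 and 151 in untreated and 166, 151 and 159 in tamoxifen samples. Untreated 1 was the highest and untreated 2 the lowest, so the tamoxifen values lay within the untreated range. The log2 fold change was -0.00 ± 0.09 (SE), with a 95% interval of -0.22 to 0.22 and a limma adjusted p = 1.00. Whether Rala and Ralb differed in their response was not tested.

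Of the 5 members beside Rgl1, 0 passed limma over all probe sets, where 0.0575% of probe sets passed (0.0374% raised and 0.0201% lowered), and 1 of the 5, Rala, had an unadjusted p under 0.05, which 5.15% of all genes had. Their median log2 fold change was 0.08, with 3 positive and 2 negative. Over all genes the median was -0.01 and 44.5% were positive. All 6 genes had a mean intensity at or above the median over probe sets. Brightness differs between probe sets for technical reasons, so these values do not say which exchange factor or which Ral is the most abundant.

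**Figure D2:**
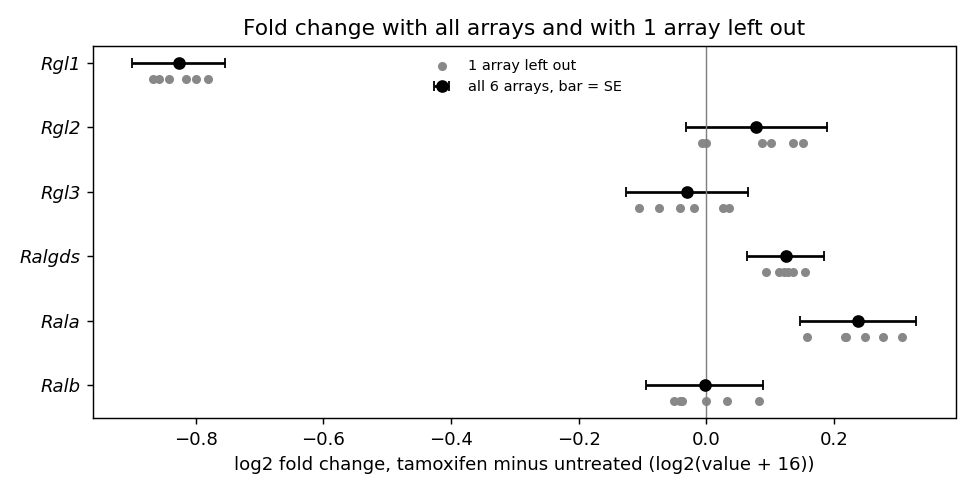
Log2 fold change of tamoxifen minus untreated samples on the log2(value + 16) scale for the 6 genes, with all 6 arrays (black, bar = SE) and with each array left out in turn (grey). Rgl1 lies between -0.87 and -0.78 in every fit that leaves out 1 array, and Rgl2, Rgl3 and Ralb have values on both sides of 0.

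The genes that act around Ral were described through lists drawn up by function, 68 genes of which 61 were measured by a probe set with 1 symbol. By limma adjusted over all probe sets 0 of the 61 were raised and 0 lowered, and 6 had an unadjusted p under 0.05, 5 positive and 1 negative. That is 9.84% of the lists, where 5.15% of all genes reached it. This count of 6 was 1 without untreated sample 3, 3 without tamoxifen sample 3 and 2 with arrays scaled to a common median. Under the other alternatives it ran from 4, as without untreated sample 2, to 8 with probe sets averaged per gene. The count thus depended on single arrays and on the processing. Groups did not overlap for 5 of the 61 (8.20%, against 9.29% of all genes in either direction). These were Exoc3, Rasal3, Araf, Pik3ca and the dim Rasgrp3, all higher after tamoxifen. Of all genes, 4.53% were raised and 4.77% lowered without overlap. The median log2 fold change of the 61 was 0.01, with 32 positive (52.5%) and 29 negative.

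Among the genes that switch Ral, the RalGAP subunits showed no difference past the test. Ralgapa1 and Ralgapa2, the alternative catalytic subunits, had log2 fold changes of 0.10 ± 0.18 and -0.00 ± 0.12 (SE), and Ralgapb, their common partner, had 0.07 ± 0.08 (SE), each with a limma adjusted p = 1.00. Each changed sign with 1 array left out, Ralgapa1 to -0.06 and Ralgapb to -0.0040 without untreated 1, and Ralgapa2 to 0.12 without untreated 2. Ralgapa1 ran from 595 to 865 among untreated samples, so its spread within a group was larger than the difference between groups. Ralgps2, an exchange factor that does not need Ras, was dim at 46.9, 47.7 and 48.9 in untreated and 47.7, 60.8 and 61.1 in tamoxifen samples. Its log2 fold change was 0.19 ± 0.07 (SE) with a limma adjusted p = 0.945. Ralgps1 and Rgl4 were not analysed here.

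The direct Ral effectors in the exocyst, Exoc2 (Sec5) and Exoc8 (Exo84), had log2 fold changes of 0.01 ± 0.07 and -0.03 ± 0.14 (SE), and their groups overlapped. Without untreated sample 1 they changed sign, to -0.06 and 0.11. Of the 8 measured effectors and partners, 4 were positive and 4 negative with a median of -0.00, and none passed. Flna, an actin crosslinker that binds Rala, measured 359, 276 and 237 in untreated and 470, 347 and 368 in tamoxifen samples. Untreated 1 lay above tamoxifen 2, so the groups overlapped, and the log2 fold change of 0.41 ± 0.15 (SE) had a limma adjusted p = 0.882. Ybx3, a Y-box nucleic acid-binding protein that Rala has been reported to bind, had the lowest value of the list at -0.10 ± 0.06 (SE), and -0.06 without untreated sample 2.

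Of the other 7 exocyst subunits, 4 were positive and 3 negative, with a median of 0.01, and none passed. Exoc3, the Sec6 subunit, measured 563, 438 and 367 in the untreated samples and 1202, 615 and 587 in the tamoxifen samples, each in the order 1, 2 and 3. Its groups did not overlap, but tamoxifen 1 was far above the other two. The log2 fold change was 0.71 ± 0.26 (SE) with a limma adjusted p = 0.882, and it was 0.43 without tamoxifen sample 1. Exoc6, the Sec15 subunit, which was singled out after its values were seen because its unadjusted p was under 0.05, had 0.20 ± 0.08 (SE) with a limma adjusted p = 0.957. Exoc5, the Sec10 subunit, had -0.02 ± 0.12 (SE), which changed sign to 0.08 without tamoxifen sample 1.

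Upstream of the exchange factors, 8 of 10 measured Ras and Rap GTPases were positive, with a median of 0.05, and none passed. Rras2, a Ras relative also called TC21, measured 2145, 1785 and 1814 in untreated and 2681, 2031 and 2113 in tamoxifen samples. Its groups overlapped, since untreated 1 lay above tamoxifen 2 and 3, and the log2 fold change was 0.24 ± 0.10 (SE) with a limma adjusted p = 0.988, and 0.15 without tamoxifen sample 1. Rras had the lowest value of the list at -0.08 ± 0.08 (SE), and -0.02 without tamoxifen sample 1.

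The genes that load or unload Ras showed no difference past the test. Of 8 Ras exchange factors 3 were positive, with a median of -0.02. Rasgrp1, a lymphocyte exchange factor that answers to diacylglycerol, had 0.11 ± 0.06 and Sos2 had -0.14 ± 0.13 (SE). Sos2 had -0.02 without tamoxifen sample 1 and -0.23 without untreated sample 1. Of 9 Ras GTPase-activating proteins 7 were negative, with a median of -0.06. Rasa3, which inactivates Ras and Rap1, measured 627, 651 and 503.4 in untreated and 511, 465 and 503.4 in tamoxifen samples. Untreated 3 stood apart from the other untreated samples and lay below tamoxifen 1, so the groups overlapped, and the log2 fold change of -0.27 ± 0.08 (SE) had a limma adjusted p = 0.733, the lowest of the 61 genes. Rasal3, a family member of blood cells, measured 281, 270 and 243 in untreated and 318, 299 and 310 in tamoxifen samples, without overlap. Its log2 fold change was 0.19 ± 0.06 (SE) with a limma adjusted p = 0.826.

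Of 15 other Ras effectors, 8 were positive and 7 negative, with a median of 0.03, and none passed. Rassf2, a Ras-association protein, had the highest log2 fold change of those at or above the median intensity, 0.23 ± 0.12 (SE), and Pik3cd, the leukocyte catalytic subunit of phosphoinositide 3-kinase, the lowest, -0.15 ± 0.18 (SE). Rassf2 had 0.35 without untreated sample 2, and Pik3cd had 0.03, with the sign changed, without untreated sample 1 and -0.27 without tamoxifen sample 1. Pik3cd ran from 424 to 688 among untreated samples, a wider range than the distance between the groups' means of 527 and 475.

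**Figure D3:**
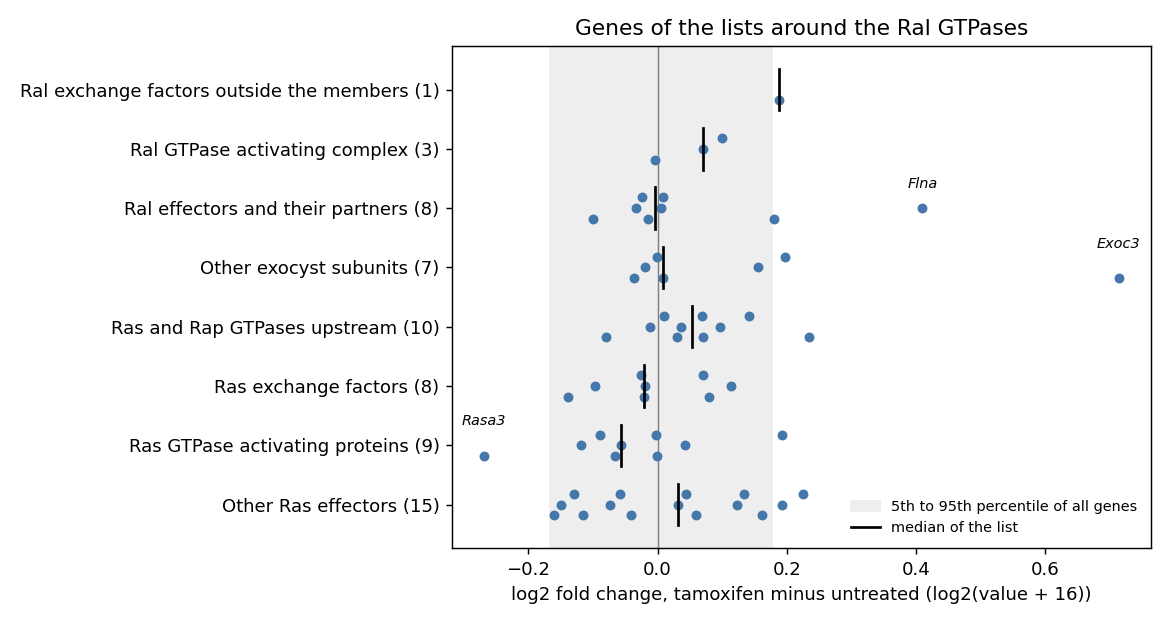
Log2 fold change of tamoxifen minus untreated samples on the log2(value + 16) scale for the 61 measured genes of the lists (points, number of genes in parentheses), with the median of each list as a black line and the 5th to 95th percentile of all genes (-0.17 to 0.18) shaded. The list medians lie between -0.06 and 0.19, the latter from the single gene Ralgps2, and Exoc3 and Flna lie farthest to the right.

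The protein-coding genes next to Rgl1 on the chromosome, by start coordinate in the RefSeq gene table, were added after the data had been seen. This order does not show whether a gene lies outside Rgl1 or within its span. Colgalt2, a collagen galactosyltransferase and the nearest in this order toward lower coordinates, was dim. It had means of 53.9 ± 5.54 and 52.5 ± 6.33 (SD, n = 3) and a log2 fold change of -0.02 ± 0.08 (SE). The next genes in that direction, Tsen15, a subunit of the tRNA splicing endonuclease, and 1700025G04Rik, had -0.03 ± 0.11 and -0.07 ± 0.06 (SE). Apobec4, the next gene by start toward higher coordinates, had intensities of 19.00, 25.48 and 20.05 in untreated samples. In tamoxifen samples it had 14.3, 18.6 and 14.5, without overlap. Its log2 fold change was -0.24 ± 0.08 (SE) with a limma adjusted p = 0.860, at intensities below 43.3, the lowest lower quartile of any array. After it in this order Arpc5, a subunit of the actin-nucleating Arp2/3 complex, was bright and had -0.01 ± 0.06 (SE), with means of 1892 ± 131 and 1878 ± 50.7 (SD, n = 3). None of these 5 neighbours passed the test.

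**Figure D4:**
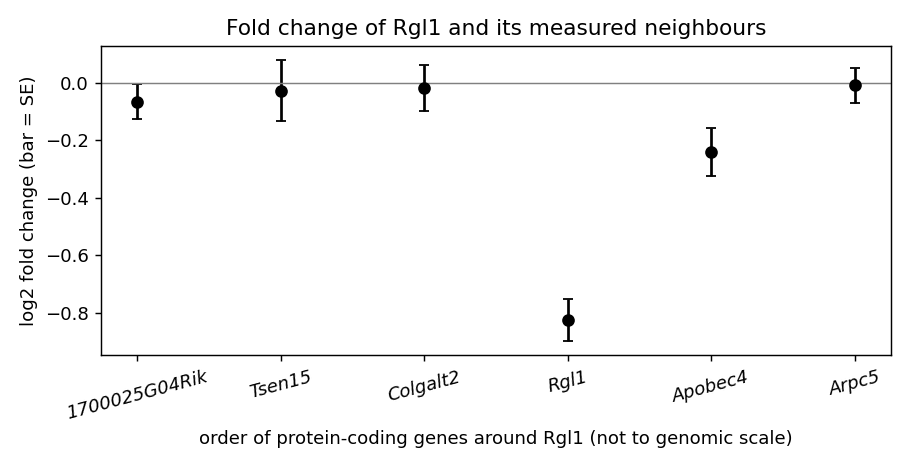
Log2 fold change of tamoxifen minus untreated samples (bar = SE) for Rgl1 and the 5 measured protein-coding genes next to it by start coordinate, in that order and not to scale. Rgl1 lies at -0.83, Apobec4 at -0.24 and the other 4 between -0.07 and -0.01.

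The genes whose values were most like those of Rgl1 over the 6 samples were sought among 10117 named genes at or above the median intensity, by Pearson correlation on the normalized log2 scale. The groups form separate clusters in these genes, so a high correlation reflects above all that each is lower in the 3 tamoxifen samples, and it is a description only. The highest correlation was that of Armcx4, an armadillo-repeat gene of the X chromosome (0.995), followed by Gja1, the gap junction protein connexin 43 (0.991), Inppl1, the lipid phosphatase SHIP2 (0.990), Ebf1, a transcription factor of the B lineage (0.990), and Drc7, a subunit of the dynein regulatory complex of cilia (0.988). They differed in the size of the change. Armcx4 and Gja1 kept 58.2% and 53.6% of their untreated intensity, near the 56.0% of Rgl1. Inppl1 kept 81.8%, Ebf1 70.8% and Drc7 36.0%.

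Gja1 measured 1118, 911 and 786 in the untreated samples and 579, 463 and 467 in the tamoxifen samples, again in the order 1, 2 and 3. In both groups sample 1 had the highest deposited intensity, as it did for Rgl1, Armcx4, Ebf1 and Drc7. For Inppl1 the deposited intensity of sample 1 was the highest only among the tamoxifen samples. The order was not the same for each gene on the normalized log2 scale of the correlations. There tamoxifen 3 was the highest tamoxifen sample for Armcx4 (-0.740, against -0.751 for tamoxifen 1, from the untreated mean). The same held for Inppl1 (-0.290, against -0.294). Drc7 measured 1470, 1072 and 933 in untreated and 535, 358.5 and 358.0 in tamoxifen samples, and relative to its mean its untreated samples spread more widely than those of Rgl1.

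**Figure D5:**
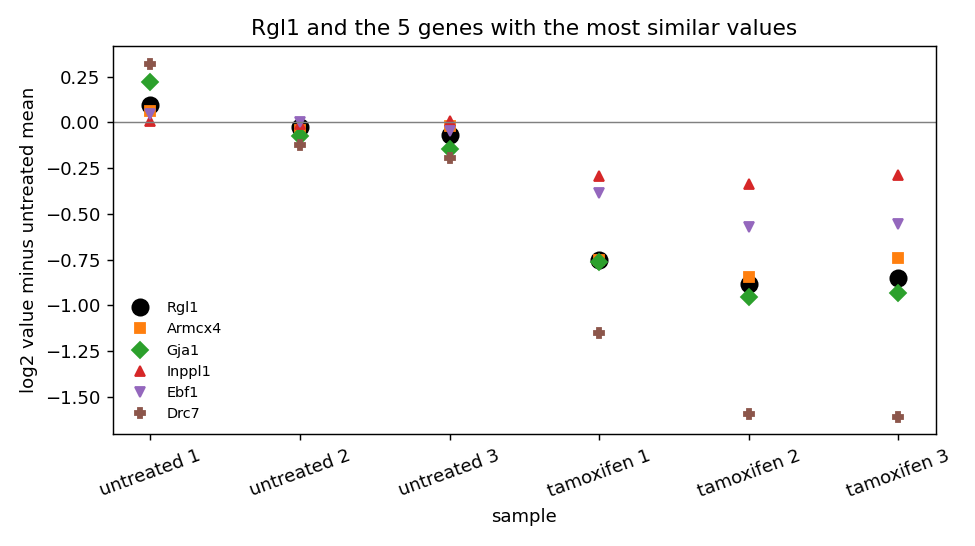
Normalized log2 value of Rgl1 (large black circles) and of the 5 genes with the highest correlation with it, minus each gene's mean over the untreated samples, in the 6 samples. All 6 genes lie below their untreated range in the 3 tamoxifen samples, Inppl1 by the least and Drc7 by the most.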

How the data were processed

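Total RNA of 6 samples, 3 untreated and 3 given tamoxifen, was hybridised to arrays as biotinylated cRNA, per the labels' protocols. The deposited values are linear intensity values already summarised by the authors to 1 number for each probe set on each array. The sources used here do not give their background correction or normalization. Groups and numbers came from the sample titles.

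Intensities were taken to log2(value + 16), quantile normalized and compared with limma 3.58.1 in R 4.3.3 (lmFit and eBayes, two-sided), with Benjamini-Hochberg adjustment across 34760 probe sets and a threshold of 0.05. An adjusted p printed as 1.00 is rounded. Printed intensities, their SD and the overlap of groups use the deposited values. The platform's annotation gave 1 symbol to 21640 probe sets, and the brightest stood for a gene. The fit was tested on simulated data. The members and lists were chosen with earlier results of these data known. Named were the 6 members, Foxo1, each list gene past the threshold (0 passed), the largest rise and fall at or above the median intensity in each list, and the 5 genes most like Rgl1. Outside this rule, and after their values were seen, the text also names list genes with an unadjusted p under 0.05 or groups without overlap, the remaining RalGAP subunit, the exocyst subunits that bind Ral, Rgl1's chromosomal neighbours, and the B lineage markers Rag1, Rag2 and Cd79b. Promoters came from RefSeq (GRCm38.p6). Alternatives covered normalization, pseudocounts of 1 and 64, a filter on dim probe sets, the variance model, array weights, averaging of probe sets, a replicate block and leaving out each array. Figures were drawn with matplotlib 3.10.9.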

Additional observations from a re-analysis of the deposited data

How the results depend on the processing

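The Rgl1 fold change of -0.83 moved by less than the spread between samples under each of the 16 alternatives, from -0.87 to -0.78 with 1 array left out and from -0.85 to -0.80 otherwise. Its probe set, chosen for being among the calls, was among them in 6 of the 16 and in 0 of the 6 that leave out an array. The other 5 members passed the threshold in 0 of 80 values, and 72 kept their sign. Some of these agreements were fixed in advance. The fold changes of all 6 members cannot change with the filter on dim probe sets or the intensity trend with robust estimation. Nor can they change with averaging, as each member had 1 probe set, or with the balanced replicate block. Ralb changed sign with scaling to a common median (0.014), cyclic loess (0.0058), and without untreated 1 (0.083), tamoxifen 2 (0.032) or tamoxifen 3 (0.00035), over a range of -0.051 to 0.083. Rgl3 did so without untreated 3 (0.026) or tamoxifen 2 (0.036), over -0.11 to 0.036, and Rgl2 without tamoxifen 2 (-0.0067), over -0.0067 to 0.15. List genes gave 0 calls under every alternative. Over all probe sets the 20 calls became 3 with scaling to a common median, 12 with no further normalization, 11 with a pseudocount of 1, 46 with dim probe sets left out, 12 with an intensity trend and robust estimation, 39 with array weights, 73 with averaged probe sets and 0 to 6 with 1 array left out, and the cause was not tested. The replicate block gave 0 calls (2525 at an unadjusted p under 0.05), with Rgl1 at -0.83 by construction. Deviations of same-numbered samples correlated at 0.256, 0.0547 and 0.302, and untreated 1 and 3 correlated best with their own number but untreated 2 with tamoxifen 1 (0.103), so pairing by number was not established. With 3 arrays per group, small differences in dim genes could not be resolved.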
